A study of Mus musculus with 15 samples.

Results

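The genes described here encode neuropeptide precursors and granins, the cargo proteins of dense-core vesicles. They were taken from a list of 32 symbols (28 peptide precursors and the 4 granin-family genes Chga, Chgb, Scg2 and Vgf), and all 32 were found among the 32285 genes of single-nucleus RNA libraries from 15 female C57BL/6J mice, 1 library per mouse. Each library held nuclei from micropunches labelled as dorsal hippocampus. The mice fell into 3 groups. NP mice (n = 6) were virgin and nulliparous. ControlPP mice (n = 4) had been bred and had passed through pregnancy, birth and an undisturbed postpartum period, and StressPP mice (n = 5) had the same history plus limited nesting material and repeated separation from the pups late in that period. The study asked what reproductive experience leaves behind in this tissue and whether stress after birth alters it.

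Neuropeptides are cut from larger precursors inside dense-core vesicles, released on strong or repeated firing, and act on G-protein-coupled receptors, often at a distance from the release site. Granins help to pack this cargo, and some are themselves cut into bioactive peptides. In the hippocampal formation, classes of GABAergic interneuron are customarily told apart by the peptide they make, whereas principal neurons make granins and a few peptides of their own. In the neighbouring striatum, projection neurons of the indirect pathway make enkephalin and those of the direct pathway make substance P and dynorphin, and the medial habenula is known for its tachykinin neurons.

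After filtering, 123901 of 134019 barcodes were kept, from libraries of 40602582 to 96211264 unique molecular identifiers (UMIs, each standing for 1 captured RNA molecule). Of 131768 distinct barcode sequences, 2211 (1.68%) occurred in at least 2 libraries. Nuclei were assigned to 30 classes from marker genes that include no member of the list, so a class name stands for resemblance to a cell type. Hippocampal principal neurons were present by their markers (31689 dentate granule-like, 5692 CA1-like and 4904 CA3-like nuclei) beside glia-like nuclei, and the punches also held thalamic-like, striatal-type, habenula-like and choroid plexus-like nuclei in numbers that differed between mice. Levels are given as counts per 1e+06 UMIs of a class (CPM), as mean ± SD over mice with at least 10 nuclei of that class.

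Oligodendrocyte-like nuclei (29850 nuclei, median 2494 UMIs) are not peptide-secreting cells, and their level of each gene was used as the floor that free RNA in the droplets could give. A member was described as above the floor in a class where its pooled CPM was at least 5-fold that of oligodendrocytes and it exceeded the oligodendrocyte level of the same mouse in at least 80% of mice. The rule took no account of depth. The same number of free RNA UMIs per droplet is a lower CPM in a deeper nucleus, so genes made in deep neuronal classes can miss the rule. The floor was not the same in every mouse. Penk, the precursor of the enkephalins, stood at 30.8 CPM in oligodendrocyte-like nuclei of StressPP mouse 3, at 12.7 in NP mouse 3 and at 8.22 in StressPP mouse 4, against 0.909 to 3.12 CPM in the other 12 mice. Those 3 mice also held the most striatal-type nuclei (704, 400 and 223).

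By this rule 19 of the 32 members were above the floor in at least 1 class. The peptide precursors that passed did so in 1 to 5 classes each. Of the granins Chgb passed in 2 classes, Chga in 7 and Vgf in 10, and Scg2 in none. A gene is said to lead, or to be highest, in a class among the 30 named classes, not among clusters left unnamed. Outside neurons the rule was met by Pthlh alone, in vascular leptomeningeal-like nuclei (5.72 ± 3.52 CPM, n = 15). Just inside the limit were Pdyn in dentate granule-like nuclei (5.07-fold) and Adcyap1 in thalamic-like nuclei (5.09-fold), and just outside it were Nppc (4.73-fold) and Scg2 (4.59-fold) in their highest classes.

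**Figure D1:**
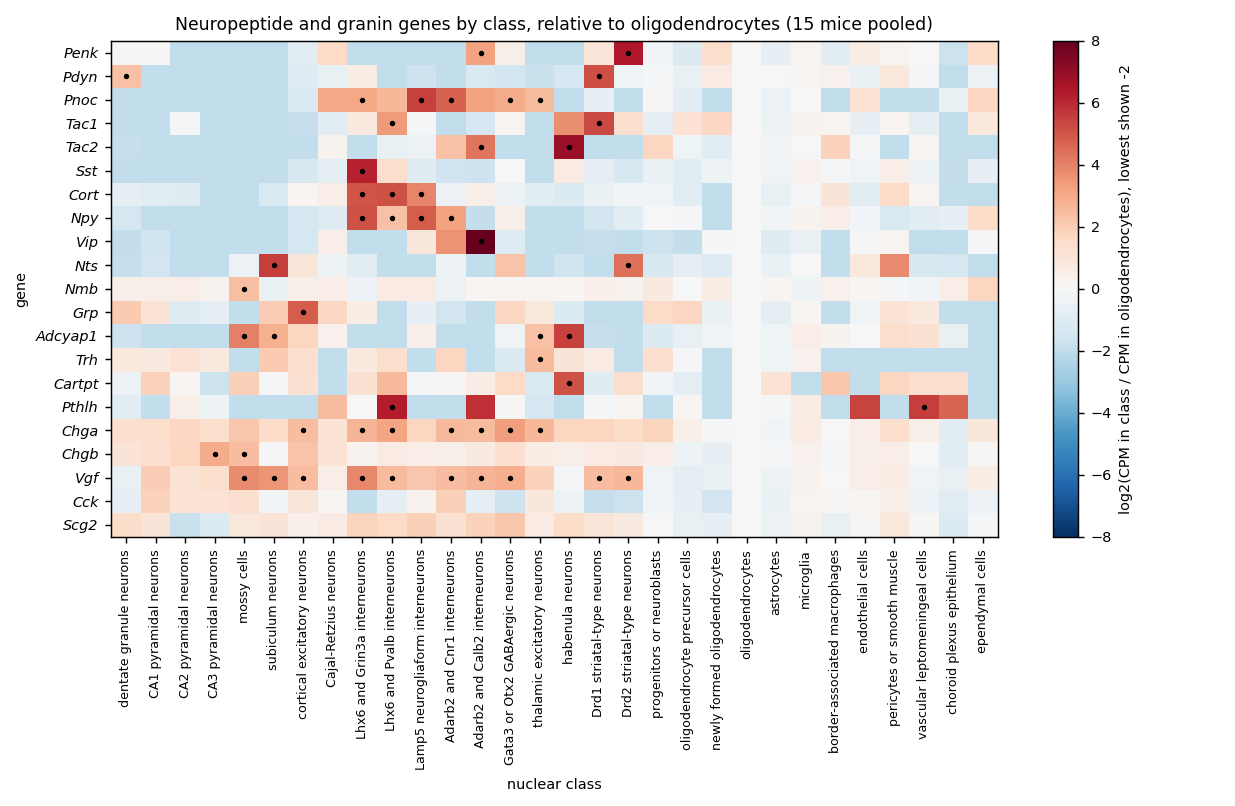
Heat map of member genes (rows) in the 30 marker-defined classes (columns), with colour giving the log2 ratio of pooled CPM to the oligodendrocyte level and dots marking pairs above the floor. Vip and Sst are each marked in 1 interneuron-like column while Npy is marked in 4, the striatal-type and habenula-like columns carry Penk, Tac1, Pdyn, Tac2 and Adcyap1, and the granins Chga and Vgf are spread over 7 and 10 classes.

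Sst encodes somatostatin, the inhibitory peptide of dendrite-targeting interneurons, and it was above the floor in a single named class. Interneuron-like clusters of 82 and 154 nuclei that were left unnamed also had Sst among their leading genes. In the named class, Lhx6 and Grin3a interneuron-like nuclei, Sst reached 376 ± 246 CPM (n = 15), 72.1-fold the oligodendrocyte level, and 83.3% of these nuclei had an Sst UMI against 1.42% of oligodendrocytes (median 15343 and 2494 UMIs per nucleus). With nuclei thinned to 1000 UMIs, and those with fewer left out, these shares were 28.3% and 0.664%. The class made up 0.377% of nuclei and gave 48.9% of all Sst UMIs. The mice differed widely: NP mice ran from 105 to 623 CPM (median 293), ControlPP mice 1 to 4 had 533, 277, 179 and 195 CPM, and StressPP mice 1 to 5 had 331, 596, 987, 516 and 131 CPM. The groups overlapped, with StressPP mouse 3 highest and NP mouse 3 lowest.

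Npy, the precursor of neuropeptide Y, led in the same Sst-expressing class at 173 ± 127 CPM (n = 15) and was nearly as high in Lamp5 neurogliaform-like nuclei at 147 ± 102 CPM, a difference smaller than the spread between mice. StressPP mouse 3 had the highest value in both classes (553 and 456 CPM) and StressPP mouse 5 the lowest (43.7 and 36.7 CPM). It was above the floor in 2 more interneuron-like classes, Adarb2 and Cnr1 (50.9 ± 26.3 CPM) and Lhx6 and Pvalb (23.6 ± 19.2 CPM, n = 13). Within the Lhx6 and Grin3a class, 60.4% of nuclei with an Sst UMI also had an Npy UMI, against 38.5% of nuclei without Sst, a direction shared by 10 of 15 mice. The nuclei with Sst also held more UMIs (median 16736 against 9899), and the part of depth in this overlap was not tested.

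Cort, the precursor of cortistatin, a relative of somatostatin, and Pthlh, which encodes parathyroid hormone-related protein, both led in Lhx6 and Pvalb interneuron-like nuclei. Cort stood at 22.4 ± 28.3 CPM (n = 13), an SD above the mean that came from NP mouse 2 at 109 CPM, with the other 12 mice between 4.36 and 39.6 CPM. Cort was also above the floor in the Lhx6 and Grin3a (15.1 ± 15.2 CPM) and Lamp5 (7.87 ± 5.35 CPM) classes. Its lead over the Lhx6 and Grin3a class was smaller than the spread between mice. Pthlh stood at 10.3 ± 6.63 CPM, between 0 in StressPP mouse 2 and 18.2 in NP mouse 2. NP mouse 2 held only 11 nuclei and 109946 UMIs of the Lhx6 and Pvalb class, so its Cort and Pthlh values rest on very few UMIs. Tac1, the precursor of substance P and neurokinin A, was above the floor there too at 31.4 ± 42.7 CPM (n = 13), and 40.3% of nuclei with a Tac1 UMI held an Npy UMI against 12.1% of the others, higher in 11 of 15 mice at similar depth (median 16025 and 15636 UMIs).

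Vip encodes vasoactive intestinal peptide, the mark of interneurons that mainly inhibit other interneurons, and it had the highest ratio to the floor of any member above it. In Adarb2 and Calb2 interneuron-like nuclei it reached 401 ± 174 CPM (n = 15), 330-fold the oligodendrocyte level. A class of 0.272% of the nuclei gave 68.6% of all Vip UMIs, and 50.7% of its nuclei had one against 0.295% of oligodendrocytes. NP mice ran from 190 to 694 CPM (median 350), ControlPP mice 1 to 4 had 687, 369, 166 and 486 CPM, and StressPP mice 1 to 5 had 499, 535, 171, 519 and 299 CPM. Every group spanned most of the range, so that no group stood apart.

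Penk and Tac2, which encodes neurokinin B, shared the Vip class as a place of lower expression. Penk was there at 52.5 ± 28.1 CPM and Tac2 at 16.1 ± 10.7 CPM (n = 15 each). Of nuclei with a Vip UMI, 40.9% had a Penk UMI, against 22.9% of nuclei without Vip, higher in 11 of 15 mice. The nuclei with and without Vip were of similar depth (median 8351 and 8552 UMIs).

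Pnoc, the precursor of nociceptin, an opioid-related peptide with its own receptor, was above the floor in 5 classes, the most of any peptide precursor. It led in Lamp5 neurogliaform-like nuclei at 49.4 ± 17.0 CPM (n = 15). There NP mice ran from 35.8 to 56.5 CPM (median 49.4), ControlPP mice 1 to 4 had 46.6, 36.8, 38.5 and 30.5 CPM, and StressPP mice 1 to 5 had 53.6, 53.3, 98.9, 63.4 and 29.7 CPM. StressPP mice held both the highest and the lowest value. The Adarb2 and Cnr1 class followed at 29.5 ± 10.7 CPM, and Pnoc stood between 6.44 and 9.15 CPM in Gata3 or Otx2 GABAergic, Lhx6 and Grin3a, and thalamic-like nuclei, whose order lay within their spread.

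Among hippocampal principal neurons, Chgb, a granin that sorts hormones into vesicles, was highest in CA3-like nuclei at 285 ± 81.2 CPM (n = 15), followed by mossy-like nuclei at 203 ± 70.2 CPM (n = 13). In CA3-like nuclei NP mice ran from 226 to 330 CPM (median 273), ControlPP mice 1 to 4 had 363, 221, 169 and 205 CPM, and StressPP mice 1 to 5 had 374, 347, 441, 326 and 167 CPM. StressPP mouse 3 was highest, StressPP mouse 5 lowest, and the groups overlapped. The floor of Chgb was high (36.6 CPM in oligodendrocytes, 9.03% of whose nuclei had a UMI), so the CA3-like level was 7.79-fold above it even though 92.6% of those nuclei had a UMI (24.4% and 3.79% after thinning).

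Vgf and Chga were spread over neuronal classes. Vgf was highest in Lhx6 and Grin3a interneuron-like nuclei (92.7 ± 45.7 CPM, n = 15) and nearly level in mossy-like nuclei (88.02 ± 33.7 CPM, n = 13), within the spread between mice. In the interneuron-like class NP mice ran from 54.6 to 216 CPM (median 87.5), ControlPP mice 1 to 4 had 71.9, 93.2, 39.7 and 82.5 CPM, and StressPP mice 1 to 5 had 59.6, 91.3, 143, 107 and 45.7 CPM. NP mouse 1 was highest and ControlPP mouse 3 lowest.

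Chga, which encodes chromogranin A, was highest in Gata3 or Otx2 GABAergic nuclei (69.96 ± 22.4 CPM, n = 15, 10.0-fold the floor). NP mice ran from 50.6 to 103 CPM (median 72.9), ControlPP mice 1 to 4 had 75.4, 71.5, 48.0 and 53.7 CPM, and StressPP mice 1 to 5 had 53.9, 80.1, 119, 63.9 and 39.7 CPM. StressPP mice again held both ends. The other 6 classes above the floor lay between 38.0 and 62.8 CPM.

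Pdyn, the precursor of the dynorphins, is classically a peptide of dentate granule cells and their mossy fibres. In dentate granule-like nuclei it was present at 8.51 ± 2.01 CPM (n = 15), and this abundant class gave 67.1% of all Pdyn UMIs. ControlPP mice 1 to 4 had 9.72, 7.15, 4.79 and 7.17 CPM, StressPP mice 1 to 5 had 8.63, 9.80, 11.1, 8.31 and 5.32 CPM, and NP mice ran from 7.77 to 11.8 CPM (median 8.66). ControlPP mouse 3 was lowest, NP mouse 1 highest, and the groups overlapped.

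Nts, Grp, Nmb and Adcyap1 were above the floor in other excitatory classes. Nts, which encodes neurotensin, led in subiculum-like nuclei (22.4 ± 10.9 CPM, n = 12), 29.5% of which had a UMI, and was also above the floor in Drd2 striatal-type nuclei (8.25 ± 3.86 CPM, n = 8). Adcyap1, the precursor of the peptide PACAP, was above the floor in mossy-like (12.9 ± 6.32 CPM, n = 13), subiculum-like (6.67 ± 5.15 CPM) and thalamic-like nuclei (4.50 ± 2.01 CPM). Grp, the precursor of gastrin-releasing peptide, was above the floor only in cortical excitatory-like nuclei (13.3 ± 9.41 CPM, n = 14).

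Nmb encodes neuromedin B, a relative of gastrin-releasing peptide, and it led in mossy-like nuclei (12.2 ± 11.0 CPM, n = 13, 5.37-fold the floor). The StressPP mice 1 to 5 had 33.4, 17.7, 8.10, 37.02 and 10.7 CPM there, against 3.12, 8.81, 7.34 and 2.41 in ControlPP mice and 3.83 to 10.5 in the 4 NP mice with enough nuclei. The mossy-like class held only 253 nuclei, and Nmb was not kept for testing in it. Nmb overlaps Sec11a on the same strand in the annotation, so that reads of the pair may not be told apart and its level is uncertain.

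The highest levels of several opioid and tachykinin precursors came from nuclei that resemble tissue beside the hippocampal formation. Penk reached 434 ± 129 CPM in Drd2 striatal-type nuclei (n = 8 mice), 86.5-fold the floor, and these 0.622% of nuclei gave 43.01% of all Penk UMIs. NP mice 3 and 6 had 336 and 329 CPM, ControlPP mice 1 to 3 had 439, 447 and 244 CPM, and StressPP mice 1, 3 and 4 had 562, 635 and 480 CPM. The 3 StressPP values lay above all the others. Tac1 and Pdyn led in Drd1 striatal-type nuclei at 90.9 ± 32.7 and 61.7 ± 11.3 CPM (n = 8).

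Within the Drd1 class, Tac1 stood at 66.2 and 58.3 CPM in NP mice 3 and 6, at 111, 94.4 and 53.0 CPM in ControlPP mice 1 to 3, and at 98.5, 153 and 92.1 CPM in StressPP mice 1, 3 and 4. Pdyn in the same mice stood at 59.2 and 55.7, at 83.3, 69.8 and 46.1, and at 63.7, 53.7 and 62.4 CPM. ControlPP mouse 3 was lowest for both genes, while the mouse that was highest differed. Of nuclei with a Tac1 UMI, 42.5% had a Pdyn UMI, against 33.5% of the others, higher in 6 of 8 mice.

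Tac2, Adcyap1 and Cartpt led in habenula-like nuclei (12 mice). Tac2 reached 76.95 ± 57.7 CPM, and this class of 1.02% of nuclei gave 76.3% of all Tac2 UMIs. All 6 NP mice had Tac2 there (47.3 to 146 CPM, median 105), but ControlPP mice 1 and 4 had 3.70 and 63.5 CPM, and StressPP mice 1 to 4 had 127, 126, 0 and 0 CPM. The mice at or near 0 (StressPP mice 3 and 4 and ControlPP mouse 1) held 28, 12 and 30 habenula-like nuclei, and a count of 0 allowed up to 12.7 and 28.0 CPM in the first pair (3 UMIs, counting error only). Adcyap1 stood at 30.96 ± 15.6 CPM, and 32.1% of nuclei with a Tac2 UMI had an Adcyap1 UMI against 14.3% of the others, higher in 9 of 10 mice. StressPP and NP could be compared in this class: the log2 fold change was -0.31 for Tac2 (SE 0.579) and -0.53 for Adcyap1 (SE 0.408), with an adjusted p of 1.00 for each.

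Cartpt, the precursor of the CART peptides, stood at 16.6 ± 23.6 CPM in the habenula-like class, carried by 3 mice: ControlPP mouse 4 at 68.8, StressPP mouse 4 at 55.9 and NP mouse 1 at 36.2 CPM, with the other 9 mice at 7.88 CPM or less. Trh, which encodes thyrotropin-releasing hormone, passed the rule in thalamic-like nuclei at 0.412 ± 0.210 CPM, a level at which 0.635% of nuclei had a UMI.

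**Figure D2:**
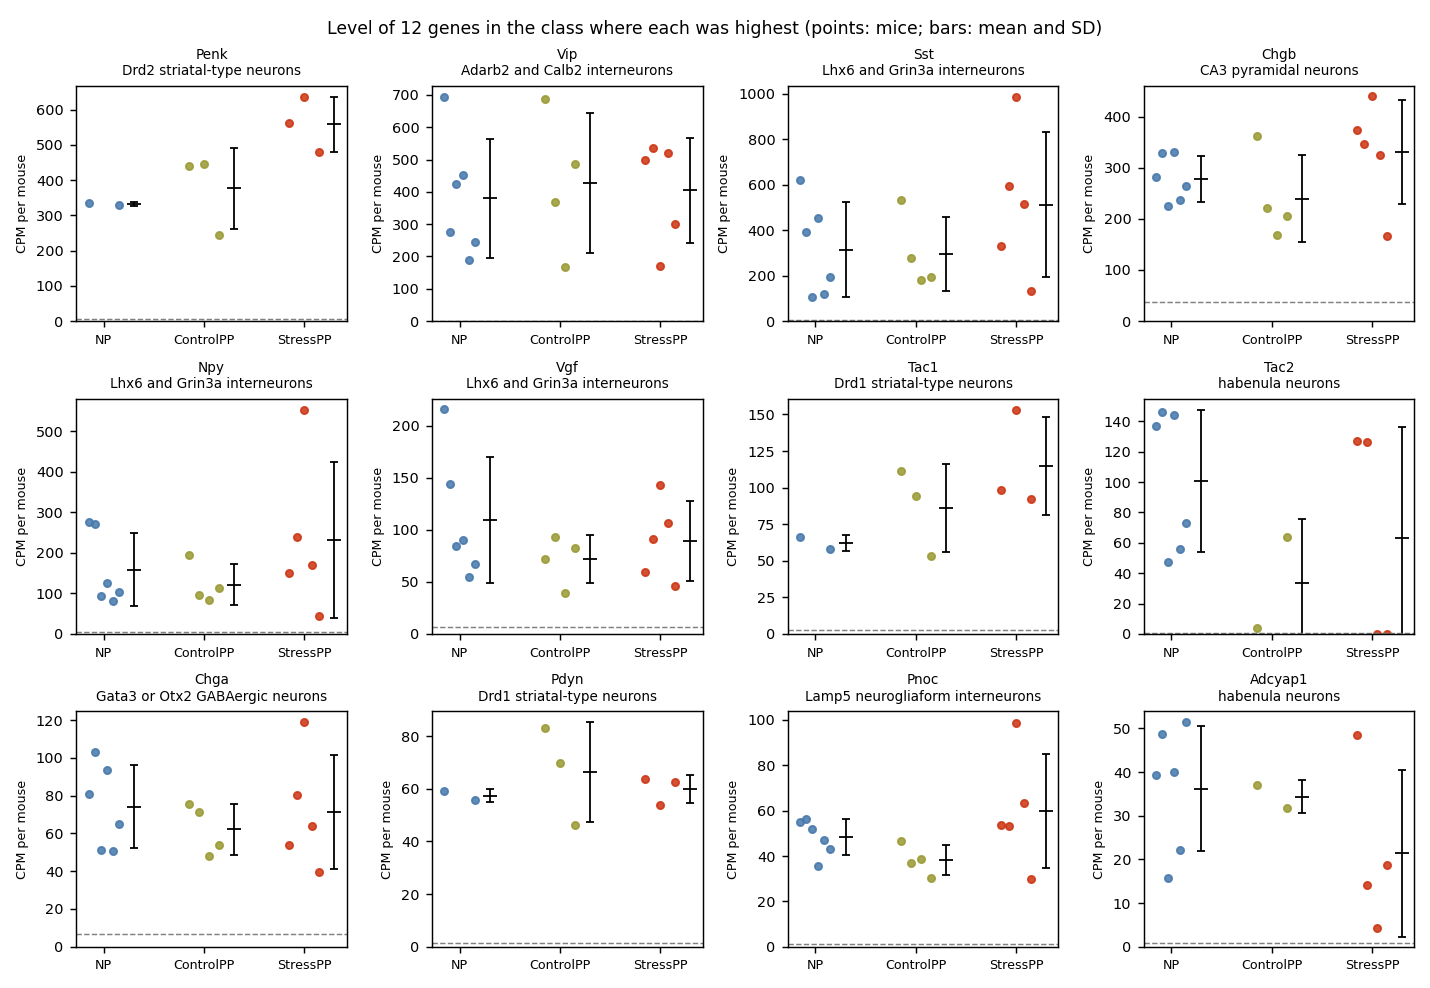
Level of 12 members (CPM, 1 panel per gene) in each mouse in the class where the gene is highest, by group, with bars for mean and SD and a dashed line at the pooled oligodendrocyte level. StressPP mouse 3 holds the highest Sst and Npy values, and 2 StressPP mice lie at 0 for Tac2.

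The remaining 13 members were above the floor in no class. Cck, the precursor of cholecystokinin, had a floor of 27.5 CPM and stood at 104 ± 46.8 CPM in Adarb2 and Cnr1 interneuron-like nuclei and at 103 ± 47.7 CPM in CA1-like nuclei, 3.68-fold the floor at most. Scg2, the precursor of secretoneurin, stood at 92.7 ± 41.7 CPM in Gata3 or Otx2 GABAergic nuclei over a floor of 18.3 CPM. Nppc, which encodes C-type natriuretic peptide, stood at 9.97 ± 4.56 CPM in the Lhx6 and Grin3a class. Cck, Scg2 and Nppc all passed when 2-fold was used as the limit. Of the Adarb2 and Cnr1 nuclei 50.2% had a Cck UMI, against 6.91% of oligodendrocytes (median 14269 and 2494 UMIs per nucleus). Of the Gata3 or Otx2 nuclei (median 9086 UMIs) 42.5% had an Scg2 UMI, against 4.67%. Thinned to 1000 UMIs, the Cck shares were 8.96% and 2.95%, and the Scg2 share also stayed above that of oligodendrocytes. The floor was not adjusted for depth, and the part of free RNA in these levels was not tested.

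The hypothalamic and sensory peptides were at trace levels in all named classes. Hcrt (orexin) had 97 UMIs in all nuclei together, Oxt (oxytocin) 78, Avp (vasopressin) 323, Pmch (melanin-concentrating hormone) 6, Pomc 563, Gal (galanin) 238, Calca and Calcb (calcitonin gene-related peptides) 90 and 61, and Nmu and Nms (neuromedins U and S) 75 and 9. None met the rule in any class. At this depth a low level in rare nuclei would not be detectable.

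The sequence upstream of the genes was searched for TGACGTCA, the cAMP response element through which CREB is known to act on peptide genes. The motif reads the same on both strands. It was found within 250 bases before the RefSeq start in 4 of the 27 members with a RefSeq promoter entry (14.8%), against 478 of 27025 genes (1.77%); a match in the letters is not evidence of binding. Penk, Pnoc, Grp, Calcb and Vgf had no entry. The 4 stretches are shown because they hold the motif (in capitals) near the start of Sst and Cartpt and of the granins Chgb and Scg2. They are written 5′ to 3′ on the strand of the gene (RefSeq, GRCm38.p6), from chr16:23890845-23890974 (minus strand) for Sst, chr2:132781512-132781641 (plus) for Chgb, chr1:79440027-79440156 (minus) for Scg2 and chr13:99900684-99900813 (minus) for Cartpt.
Sst: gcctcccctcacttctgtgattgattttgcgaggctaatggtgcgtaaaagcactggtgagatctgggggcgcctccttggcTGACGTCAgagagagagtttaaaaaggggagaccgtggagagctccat
Chgb: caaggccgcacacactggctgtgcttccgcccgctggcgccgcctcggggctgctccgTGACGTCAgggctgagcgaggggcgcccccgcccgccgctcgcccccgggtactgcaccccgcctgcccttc
Scg2: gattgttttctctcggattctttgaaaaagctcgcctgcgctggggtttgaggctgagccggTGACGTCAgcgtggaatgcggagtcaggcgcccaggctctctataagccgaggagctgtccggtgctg
Cartpt: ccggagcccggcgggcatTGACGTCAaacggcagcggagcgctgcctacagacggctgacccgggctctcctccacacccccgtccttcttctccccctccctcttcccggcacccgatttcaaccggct
The motif began 48 bases before the RefSeq start of Sst, 68 before Scg2, 72 before Chgb and 112 before Cartpt. The gene annotation used for the positions of the members starts all 4 genes further upstream, so that the motifs lie downstream of its starts.

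Group differences were tested on UMI counts summed per mouse and class with edgeR's quasi-likelihood test, with Benjamini-Hochberg adjustment over all genes of a fit. Of the 32 members, 22 were abundant enough to be tested in at least 1 class, 26 in the whole punch (all nuclei of a mouse summed) and 6 nowhere. No member had an adjusted p under 0.05 in any class or in the punch. This matched a background near 0 for all genes: by adjusted p the class fits called 0% (ControlPP against NP), 0.000422% (StressPP against ControlPP) and 0% (StressPP against NP), and the punch fits called 0.00473%, 0% and 0%.

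For the most fully described members, the fits left wide margins, in the highest class of each except Pdyn, for which the dentate granule-like class is given. For Sst in the Lhx6 and Grin3a class the log2 fold change of StressPP against ControlPP was 0.75 (95% interval -0.16 to 1.67) and of ControlPP against NP -0.02 (-0.91 to 0.87). For Npy in that class these were 0.87 (-0.03 to 1.76) and -0.30 (-1.19 to 0.60), and for Vip in the Adarb2 and Calb2 class -0.03 (-0.71 to 0.64) and 0.22 (-0.44 to 0.87). For Chgb in CA3-like nuclei they were 0.45 (0.02 to 0.88) and -0.14 (-0.56 to 0.27), for Pnoc in Lamp5 nuclei 0.61 (0.15 to 1.07) and -0.28 (-0.74 to 0.19), and for Pdyn in dentate granule-like nuclei 0.24 (-0.15 to 0.63) and -0.31 (-0.69 to 0.06). The intervals are normal approximations from the SE, without adjustment for the number of genes, and the smallest adjusted p among these 12 differences was 0.896.

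By unadjusted p under 0.05, 10 of 138 pairs of a member and a class passed between ControlPP and NP, all lower in ControlPP, beside 3.43% of all genes tested. Between StressPP and ControlPP 14 of 150 pairs passed, 13 of them higher in StressPP, beside 2.92%. Between StressPP and NP 15 of 147 pairs passed, 8 of them higher in StressPP, beside 3.78%. These are unadjusted counts, the pairs share mice and genes, and they moved with single mice: the 14 became 43 without StressPP mouse 5, 26 without ControlPP mouse 1, 9 without ControlPP mouse 2, 7 without StressPP mouse 4, 6 without ControlPP mouse 3 and 4 without StressPP mouse 3. With at least 20 nuclei per mouse and class, 9 of 133 pairs passed between StressPP and ControlPP, 8 of them higher in StressPP. The 10 became 6 without ControlPP mouse 2, 8 with batch as a term (2 of them higher in ControlPP) and 5 with batches 2 and 3 alone, and the 15 became 30 without StressPP mouse 5, 9 without StressPP mouse 3 and 4 without StressPP mouse 4.

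The members leaned lower in ControlPP than in the other groups without any of them passing the adjusted threshold. Between ControlPP and NP the median log2 fold change over the 138 pairs was -0.18, with 40 pairs above 0 (29.0%, against 49.4% of all genes). Between StressPP and ControlPP the median was 0.30, with 128 of 150 pairs above 0 (85.3%, against 49.3% of all genes). Between StressPP and NP it was 0.11, with 89 of 147 pairs above 0 (60.5%, against 49.3% of all genes). Many of these pairs lie in classes where the gene was not above the floor. Of the 150 pairs between StressPP and ControlPP, Chgb gave 25, Chga 21, Scg2 19, Vgf 18 and Cck 16, so these genes weigh most. Of the pairs in classes above the floor, 5 of 35 were higher in ControlPP than in NP (median -0.28), 33 of 40 were higher in StressPP than in ControlPP (median 0.34), and 16 of 38 were higher in StressPP than in NP (median -0.07, the opposite sign to that of all pairs). Single mice moved these medians both ways. The StressPP against ControlPP median ran from 0.16 without StressPP mouse 3 to 0.46 without ControlPP mouse 1. The ControlPP against NP median ran from -0.06 without ControlPP mouse 3 to -0.31 without ControlPP mouse 1, and was -0.12 without NP mouse 1. The StressPP against NP median turned to -0.03 without StressPP mouse 3, was 0.06 without NP mouse 5 and 0.18 without NP mouse 1, and reached 0.23 without StressPP mouse 5. With batch as a term the ControlPP against NP median was -0.11. With batches 2 and 3 alone the medians were -0.05 (ControlPP against NP), 0.32 (StressPP against ControlPP) and 0.25 (StressPP against NP). ControlPP mice enter those contrasts in opposite roles, so the opposite leanings are not separate observations.

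**Figure D3:**
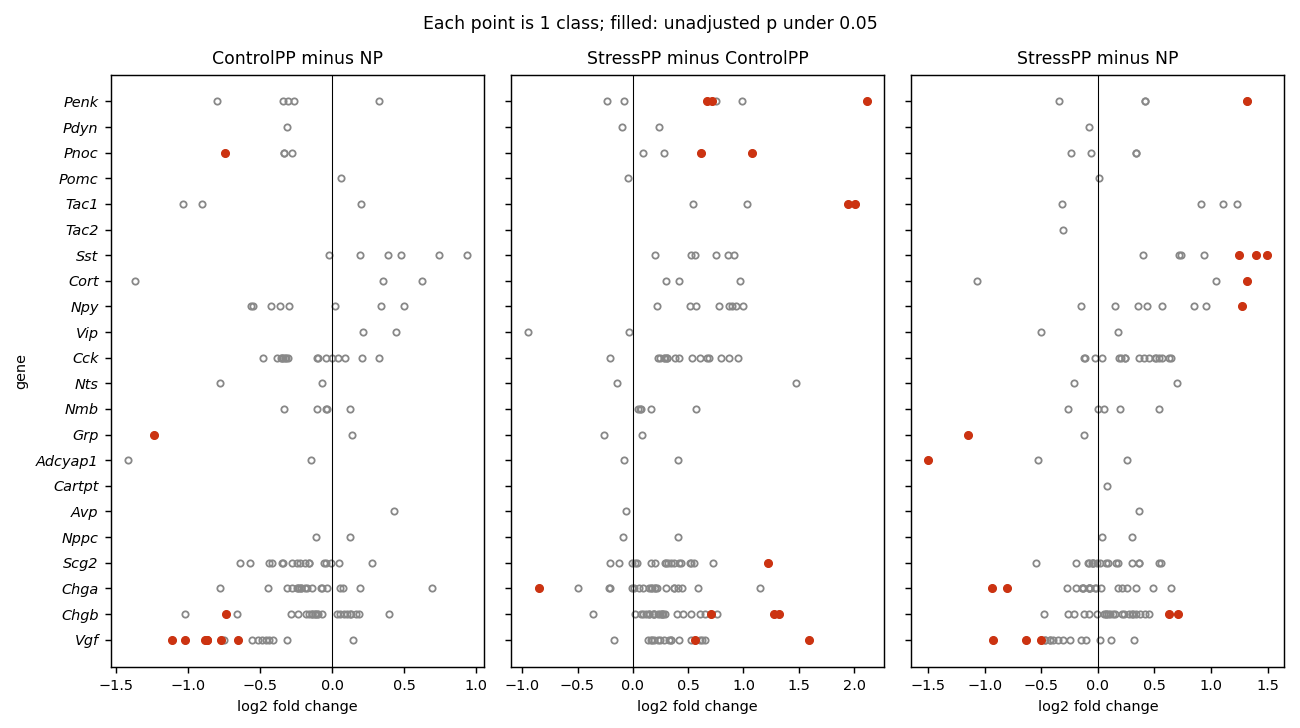
Log2 fold change of each member gene (rows) in each class tested (1 point per class), in 3 panels for ControlPP against NP, StressPP against ControlPP and StressPP against NP, with filled points at unadjusted p under 0.05. The middle panel has 128 of 150 points above 0, and Vgf points in the left panel lie below 0 in 15 of 16 classes.

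Vgf, a granin-family gene whose product is cut into several peptides and which is known to respond to neurotrophins and activity, accounted for most of the smallest p values between ControlPP and NP. In subiculum-like nuclei NP mice had 49.9 to 140 CPM (median 87.2), ControlPP mice 1, 3 and 4 had 44.5, 33.0 and 55.5 CPM, and StressPP mice 2, 4 and 5 had 68.5, 76.8 and 47.3 CPM. The NP and ControlPP values overlapped only through the lowest NP mouse. NP mice 3 and 6 held only 12 and 14 subiculum-like nuclei, against 63 in NP mouse 1 and 69 in ControlPP mouse 3. The log2 fold change of ControlPP against NP by edgeR was -1.11 (SE 0.268, unadjusted p = 0.000594, adjusted p = 0.967).

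In mossy-like nuclei NP mice 1, 3, 5 and 6 had 171, 124, 92.0 and 75.5 CPM of Vgf, ControlPP mice 1 to 4 had 62.4, 59.5, 62.4 and 53.0 CPM, and StressPP mice 1 to 5 had 88.3, 77.9, 119, 98.2 and 60.9 CPM. The ControlPP values lay below all NP values (log2 fold change -0.87, SE 0.249, adjusted p = 0.595). These NP mice held 17, 10, 11 and 20 mossy-like nuclei, and ControlPP mice 1 to 4 held 16, 41, 14 and 24. In Gata3 or Otx2 GABAergic and cortical excitatory-like nuclei the log2 fold changes were -0.88 and -0.87 (SE 0.257 and 0.278, adjusted p = 1.00 and 0.587). In the GABAergic class ControlPP mice had 34.0, 40.8, 25.2 and 30.1 CPM against 34.2 to 95.9 in NP mice. In the cortical class ControlPP mice had 32.8, 32.6, 15.4 and 27.9 CPM, all below the lowest NP mouse at 36.2. Of all genes in the edgeR fit of the cortical class, 673 of 9149 passed unadjusted p under 0.05 in this contrast.

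Across the 16 classes in which Vgf was tested, it was lower in ControlPP than in NP in 15, including all 8 where it was above the floor, with 7 classes at unadjusted p under 0.05 and a median log2 fold change of -0.60. The classes share mice: over 10 neuronal classes with all mice, Cajal-Retzius-like nuclei not counted, NP mouse 1 was highest in 7 and ControlPP mouse 3 lowest in 8. NP mouse 1 belonged to batch 1 of the labels, which held NP mice 1 and 2, StressPP mouse 2 and no ControlPP mouse. With batch as a term it remained lower in 15 of 16 classes (median -0.52, 5 classes at unadjusted p under 0.05), and with batches 2 and 3 alone it was lower in 12 of 14, including 5 of the 6 above the floor (median -0.37, 3 classes at unadjusted p under 0.05). In oligodendrocyte-like nuclei, which set the floor, Vgf did not share this order: NP mice had 5.56 ± 1.95 CPM, ControlPP mice 6.06 ± 1.36 CPM and StressPP mice 6.83 ± 4.85 CPM.

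**Figure D4:**
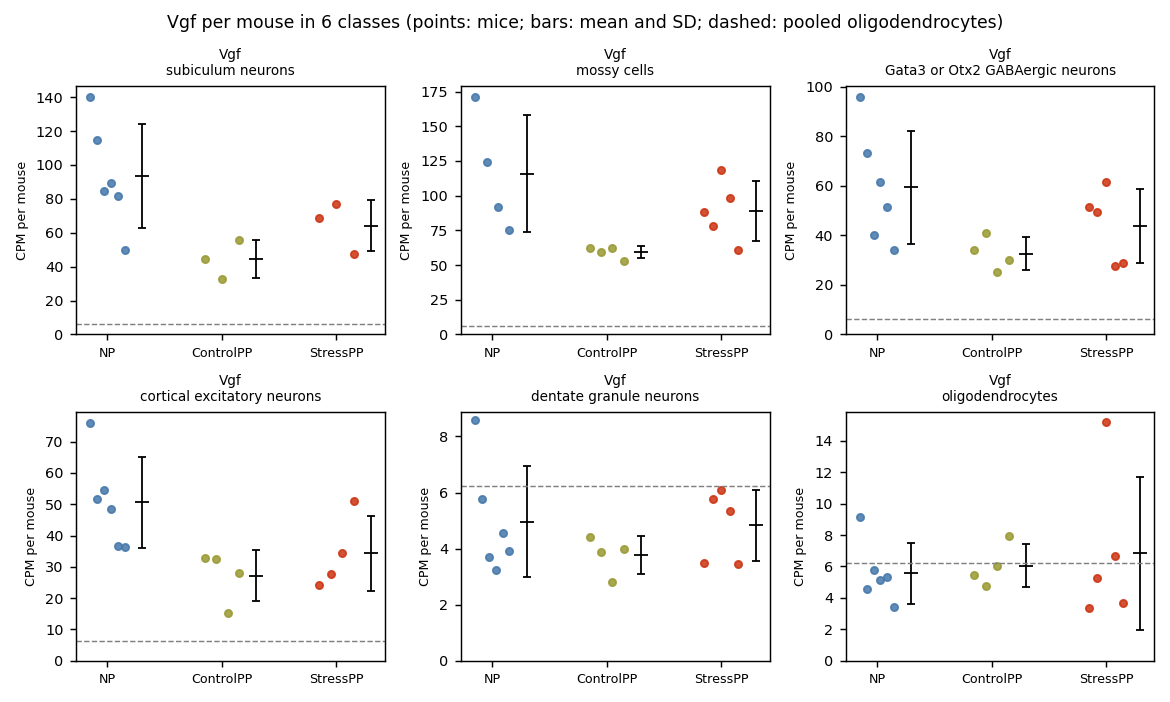
Level of Vgf (CPM) in each mouse of the 3 groups in 5 neuronal classes and in oligodendrocyte-like nuclei, with bars for mean and SD and a dashed line at the pooled oligodendrocyte level. ControlPP points lie at the low end in the subiculum-like (33.0 to 55.5 CPM) and mossy-like (53.0 to 62.4 CPM) panels, and no such order shows in the dentate granule-like or oligodendrocyte-like panels.

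Between StressPP and ControlPP, Vgf was higher in StressPP in 17 of 18 classes (median log2 fold change 0.34), Chgb in 24 of 25 (0.26), Scg2 in 16 of 19 (0.32) and Chga in 16 of 21 (0.17). Of these classes only 10, 2, 0 and 7 were above the floor for the respective gene, so for Scg2 all of them, and for Chgb all but 2, did not meet the rule for standing above free RNA. With batch as a term Chga was higher in 13 of 21 classes (median 0.06), and its median was 0.09 with batches 2 and 3 alone. No difference between the granins was tested. Here too a few mice set the ends: of the same 10 neuronal classes, Chgb was highest in StressPP mouse 3 in 6 and lowest in StressPP mouse 5 in 8, so that both ends came from 1 group. Chga was lower in ControlPP than in NP in 15 of 19 classes, but in 11 with batch as a term and in 8 of 17 with batches 2 and 3 alone.

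Between StressPP and ControlPP the smallest p values came from striatal-type nuclei, with at least 10 nuclei in 3 mice of each of these groups. Of all genes in these edgeR fits, 835 of 7923 in the Drd1 class and 605 of 6749 in the Drd2 class passed unadjusted p under 0.05. Over all class fits 2.92% did, so small p values in striatal-type nuclei were not particular to the members. ControlPP mice 1 to 3 held only 12, 22 and 48 Drd1 and 11, 11 and 36 Drd2 nuclei. StressPP mice 1, 3 and 4 held 35, 366 and 110 Drd1 and 31, 338 and 113 Drd2 nuclei. With at least 20 nuclei as the limit, neither class kept 3 ControlPP mice, so these pairs could not be tested. Chgb in the Drd1 class stood at 34.7, 32.8 and 20.7 CPM in ControlPP mice 1 to 3 and at 65.6, 81.6 and 59.4 CPM in StressPP mice 1, 3 and 4, without overlap (log2 fold change 1.32, SE 0.322, adjusted p = 0.245 by edgeR). In the Drd2 class it stood at 28.0, 13.6 and 33.5 CPM against 53.8, 80.9 and 71.7 CPM (log2 fold change 1.27, SE 0.368, adjusted p = 0.370). ControlPP mice 1 and 2 had 107038 and 73776 UMIs of the Drd2 class in all, so 28.0 and 13.6 CPM rest on very few Chgb UMIs. Scg2 in the Drd1 class stood at 41.7, 12.3 and 11.5 CPM against 50.2, 43.2 and 35.8 CPM, which overlapped (log2 fold change 1.23, SE 0.418, adjusted p = 0.325). Penk in the Drd2 class, given per mouse above, differed by 0.67 (SE 0.202, adjusted p = 0.407).

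The pooled oligodendrocyte level of Chgb was 36.6 CPM, so its ControlPP values in the striatal-type classes lay at or below the floor. The striatal-type nuclei were deeper (median 9576.5 UMIs for Drd1 and 8456 for Drd2, against 2494), and the floor was not adjusted for depth. The 5 pairs of smallest p in this contrast also held Pnoc in Gata3 or Otx2 GABAergic nuclei, at 4.60, 4.54, 6.30 and 4.58 CPM in ControlPP mice 1 to 4 and at 21.1, 10.3, 16.8, 10.2 and 3.92 CPM in StressPP mice 1 to 5 (log2 fold change 1.08, SE 0.353, adjusted p = 1.00). Its unadjusted p by edgeR (0.0066) lay below that of Scg2 in the Drd1 class (0.0103). All StressPP mice but mouse 5 lay above the ControlPP mice. StressPP mouse 1, the highest, held 34 nuclei and 426346 UMIs of this class, and ControlPP mouse 2 held 881629 UMIs. Their values rest on few Pnoc UMIs.

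Between ControlPP and NP, and between StressPP and NP, Grp in cortical excitatory-like nuclei was among the 5 pairs with the smallest p. NP mice had 13.1 to 37.3 CPM (median 16.5), ControlPP mice 1 to 4 had 8.25, 13.2, 4.25 and 3.10 CPM, and StressPP mice 2 to 5 had 13.5, 4.30, 7.45 and 7.66 CPM. The log2 fold changes were -1.23 (SE 0.445, adjusted p = 0.617) and -1.15 (SE 0.428, adjusted p = 1.00) by edgeR. Both contrasts rest on the same NP mice. Of all genes in the edgeR fit of this class, 673 of 9149 passed unadjusted p under 0.05 between ControlPP and NP. Between StressPP and NP 266 of 9149 did. The class held 13 nuclei in NP mouse 3, 20 in NP mouse 4 and 31 in ControlPP mouse 4. It held 335 in ControlPP mouse 1 and 365 in StressPP mouse 3. ControlPP mouse 4 had 322741 UMIs of the class in all, so its 3.10 CPM rests on very few Grp UMIs. The part of counting error in these differences was not tested.

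3 further pairs between StressPP and NP involved classes in which the gene was not above the floor. Npy in astrocyte-like nuclei stood at 2.16 to 4.35 CPM in NP mice (median 2.74) and at 4.65, 7.73, 9.67, 11.9 and 2.70 CPM in StressPP mice 1 to 5 (log2 fold change 1.28, SE 0.394, adjusted p = 1.00). In oligodendrocyte-like nuclei of the same StressPP mice Npy stood at 4.39, 5.54, 14.7, 9.90 and 0.461 CPM. Sst in dentate granule-like nuclei was at 0.478 to 1.39 CPM in NP mice and 0.425 to 4.98 CPM in StressPP mice (log2 fold change 1.39), below the 5.46 CPM of oligodendrocytes, and Chgb in oligodendrocyte precursor-like nuclei was at 14.3 to 33.4 and 18.8 to 49.1 CPM (0.71). In oligodendrocyte-like nuclei Chgb ran from 28.5 to 38.6 CPM in NP mice and from 29.98 to 50.2 CPM in StressPP mice. The part of free RNA in these 3 differences was not tested.

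The remaining pair was Chga in the Vip-rich Adarb2 and Calb2 class, where it was above the floor. NP mice had 40.9 to 73.4 CPM (median 47.9), ControlPP mice 1 to 4 had 34.6, 55.9, 60.4 and 41.4 CPM, and StressPP mice 1 to 5 had 40.9, 24.2, 34.2, 20.3 and 20.8 CPM. StressPP mice 2 to 5 lay below every NP mouse and StressPP mouse 1 beside the lowest of them (log2 fold change -0.93, SE 0.339, adjusted p = 1.00). This class held only 11 to 36 nuclei per mouse, so each of these values rests on few Chga UMIs. Over all classes tested in this contrast, Chga was lower in StressPP than in NP in 13 of 20 and Vgf in 13 of 16, but with batches 2 and 3 alone in 4 of 16 and 7 of 13, and Chga in 10 of 20 with batch as a term. The part of any single nucleus type within this class of 337 nuclei was not tested.

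In the whole punch, where fewer cells of a type and less RNA per cell cannot be told apart, 3, 4 and 3 of 26 members passed unadjusted p under 0.05 in the 3 contrasts, beside 3.98%, 0.860% and 3.94% of all genes. Between StressPP and ControlPP these were Tac1, Penk, Npy and Pnoc, all higher in StressPP. The count of 4 became 0 without StressPP mouse 3, 7 without ControlPP mouse 1, 11 without StressPP mouse 5 and 2 with batch as a term. Penk stood at 4.52, 3.42, 3.67 and 3.18 CPM in ControlPP mice 1 to 4 and at 7.26, 3.17, 42.7, 16.1 and 2.57 CPM in StressPP mice 1 to 5 (log2 fold change 1.86, SE 0.725, adjusted p = 1.00 by edgeR). StressPP mice 1, 3 and 4 lay above the ControlPP mice and StressPP mice 2 and 5 below them.

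Striatal-type nuclei moved with these values. They made up 6.15% of nuclei in StressPP mouse 3, 4.75% in NP mouse 3 and 2.83% in StressPP mouse 4, and 0% in 6 mice. Without nuclei that resemble neighbouring or non-parenchymal tissue (striatal-type, thalamic-like, habenula-like, choroid plexus, ependymal and vascular classes, with the unnamed striatal sub-clusters), Penk in StressPP mouse 3 was 16.2 CPM, the log2 fold change of Penk was 0.89 and that of Tac1 1.41 in place of 2.23. Only these are called neighbouring classes here. Cortical excitatory-like (1881) and Gata3 or Otx2 GABAergic (3073) nuclei stayed in, as did the other unnamed nuclei. Npy and Pnoc had log2 fold changes of 1.10 and 0.64 in the punch, and 1.18 and 0.83 without the neighbouring classes. Leaving out nuclei does not take away free RNA in the droplets that were kept. Without the neighbouring classes Penk was still highest in StressPP mouse 3, NP mouse 3 and StressPP mouse 4 (16.2, 6.66 and 6.17 CPM). The part of free RNA in these differences was not tested.

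Tac2 and Adcyap1 were lower in the punches of ControlPP mice than of NP mice. Tac2 stood at 0.187 to 10.4 CPM in NP mice and at 0.310, 0.182, 0.0722 and 0.389 CPM in ControlPP mice 1 to 4 (log2 fold change -3.99, SE 1.07, adjusted p = 0.831). Habenula-like nuclei made up between 0.166% and 4.83% of nuclei in NP mice and at most 0.321% in ControlPP mice, with none in ControlPP mice 2 and 3. Without neighbouring classes the log2 fold change was -1.97. Adcyap1 stood at 0.731 to 4.01 CPM in NP mice and at 1.09, 0.772, 0.867 and 0.982 CPM in ControlPP mice (log2 fold change -1.60, SE 0.421, adjusted p = 0.831), and its log2 fold change without neighbouring classes was -1.49. For Tac2 and Adcyap1 too, the part of free RNA left in the droplets that were kept was not tested.

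The third gene in that contrast, Calca, was at 0.207 CPM or less in every punch (log2 fold change -1.41). Between StressPP and NP, Tac2 (log2 fold change -2.10), Adcyap1 (-0.89) and Sst (1.20) passed unadjusted p under 0.05. These 3 became 0 without StressPP mouse 4, 1 without StressPP mouse 3, NP mouse 4 or NP mouse 5, 6 without StressPP mouse 5 and 5 with batch as a term. Sst stood at 2.16 to 9.97 CPM in NP mice and at 6.31, 14.7, 19.7, 12.2 and 1.49 CPM in StressPP mice 1 to 5 (SE 0.508, adjusted p = 0.999). Again StressPP mice gave both the highest and the lowest punch.

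**Figure D5:**
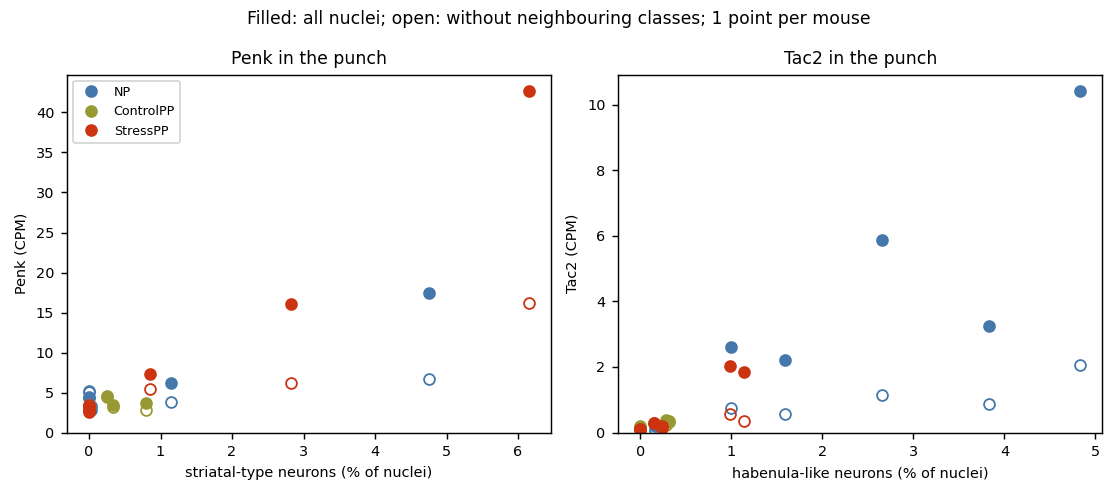
Level in the whole punch (CPM) against the share of neighbouring nuclei in each mouse, for Penk against striatal-type nuclei (%) and Tac2 against habenula-like nuclei (%), with filled points for all nuclei and open points without the neighbouring classes. Penk in StressPP mouse 3 moves from 42.7 to 16.2 CPM when those classes are left out.

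The genes that process and receive these peptides were read from 2 lists. Of 14 genes for vesicle biogenesis, precursor cleavage and release, such as the convertases Pcsk1 and Pcsk2 and the carboxypeptidase Cpe, none had an adjusted p under 0.05 in any class or punch. Of their pairs with a class, 11 of 297, 17 of 317 and 18 of 311 passed unadjusted p under 0.05 in the 3 contrasts, with median log2 fold changes of -0.03, -0.02 and -0.06. Of 43 receptor genes, 35 were tested in a class and none was called, with 12 of 196, 17 of 205 and 16 of 203 pairs at unadjusted p under 0.05 and medians of -0.04, -0.01 and -0.04. The background shares are those given for the members, and the list medians in StressPP against ControlPP lay near 0 where that of the members was 0.30; the difference was not tested.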

How the data were processed

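The deposited files were filtered count matrices of unique molecular identifiers (counts), 1 per mouse, which the authors made with Cell Ranger (version 7.1.0 per the submitters' processing notes and 7.0.0 per the file headers) on mm10. Barcodes with fewer than 200 genes or more than 5% mitochondrial UMIs were removed, and doublets were removed with Scrublet at 0.8% per 1000 barcodes. Nuclei were clustered with scanpy 1.11.5 (2000 variable genes without members, 30 components, 15 neighbours, Leiden resolution 1), and classes were named from marker lists, with thresholds set after the clusters were seen. 8625 nuclei stayed unnamed.

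Counts were summed per mouse and class (at least 10 nuclei, at least 3 mice per group) and tested with edgeR 4.0.16 (quasi-likelihood, filterByExpr, TMM, Benjamini-Hochberg adjustment). The scripts were tested on simulated data. DESeq2 1.42.0, no filter, a batch term, batches 2 and 3 alone, at least 20 nuclei, the punch without neighbouring classes and leaving out each mouse were alternatives. The genes given by name were each member in its highest class, the 5 pairs of smallest p per contrast and punch members at unadjusted p under 0.05. Members and lists were chosen with earlier results of these data known. Each library came from a different mouse, so p-values measure spread between mice. Intervals of shares were not used, and counts of UMIs carry counting error besides. Promoters and gene positions came from GRCm38 tables.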

Additional observations from a re-analysis of the deposited data

Results flagged for a closer look

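Of 92 sets of values examined, each from 4 to 6 mice of 1 group, 8 held a mouse far from the rest, where chance gives about 1 in 20 groups. In habenula-like nuclei Cartpt stood at 36.2 CPM in NP mouse 1 (the next NP mouse had 7.51) and at 55.9 CPM in StressPP mouse 4 (next 7.88). In the whole punch Tac1 stood at 21.1 CPM in StressPP mouse 3 (next 5.25) and at 0.685 CPM in ControlPP mouse 4 (next 1.39), Penk at 17.4 CPM in NP mouse 3 (next 6.22), Calca at 0.0905 CPM in ControlPP mouse 1 (next 0.0312), and Pnoc at 1.64 CPM in ControlPP mouse 4 (next 1.97). Pnoc in Gata3 or Otx2 GABAergic nuclei stood at 6.30 CPM in ControlPP mouse 3 (next 4.60).

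Several members were at least 2-fold higher in clusters that were given no class name than in any named class. They were picked after their values were seen and are pooled over mice, so they carry no test. A cluster of 69 nuclei beside the striatal-type classes, led by Ankfn1 and Casz1, had 445 CPM of Tac1, and one of 128 nuclei had 328 CPM of Tac1, against 90.9 CPM of Tac1 in the Drd1 class. A cluster of 56 interneuron-like nuclei had 109 CPM of Pthlh and 353 CPM of Scg2, 19.4-fold the oligodendrocyte level, which no named class reached for Scg2.

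Among nuclei of a mixed cluster that held both Slc17a6 and Gad2, 184 nuclei led by Meis2 and Tfap2b had 50.3 CPM of Gal, 227-fold the floor, in 14 mice, and 210 nuclei led by Piezo2 and Nos1 had 8.89 CPM of Nmu. A group of 113 nuclei led by Meis2 and Six3 had 14.0 CPM of Trh, 27.4 CPM of Avp and 99.4 CPM of Sst, from 13 mice. Avp, Gal and Nmu were above the floor in no named class. Below that 2-fold limit, members still above their highest named class included Npy (223 CPM in 82 nuclei), Cort (40.6 CPM in 154), Adcyap1 (58.9 CPM in 195), Chga (102 CPM in 180) and Pdyn (108 CPM in the 128 nuclei above).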

How the results depend on the processing

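No paired analysis was possible because the labels number mice only by accession order within a group, and the numbers pair no mice across groups. With no filter beyond a count above 0, members with an adjusted p under 0.05 in the class fits numbered 1 (ControlPP against NP: Vgf in subiculum-like nuclei), 5 (StressPP against ControlPP: Chgb in Drd1 and Penk in Drd2 striatal-type nuclei, Penk in endothelial-like nuclei, Npy in the Lamp5 and the Lhx6 and Grin3a classes) and 2 (StressPP against NP: Penk in endothelial-like nuclei and Sst in the Lhx6 and Grin3a class), in place of 0, and 5 list genes passed. DESeq2 gave 1 member in the punch (Tac2, ControlPP against NP) and 2 list genes in the class fits. Why these settings differ was not tested. Of 720 alternatives to the 39 group differences named, 18 turned in sign and 5 passed the adjusted threshold. The 18 belong to 5 differences, none of which passed the threshold. Sst in the Lhx6 and Grin3a class, ControlPP against NP, was 0.040 with no filter, 0.43 with batch as a term and 0.43 with batches 2 and 3 alone, and ran from -0.43 to 0.28 with 1 mouse left out, above 0 without NP mouse 1, 2 or 4 or ControlPP mouse 2, 3 or 4. Npy there, ControlPP against NP, was 0.14 with batch as a term and 0.29 with batches 2 and 3 alone. Vip in its class, StressPP against ControlPP, was 0.089 with at least 20 nuclei and ran from -0.30 to 0.31 with 1 mouse left out, above 0 without ControlPP mouse 1 or 4 or StressPP mouse 3 or 5; its ControlPP against NP difference ran from -0.13 (without ControlPP mouse 1) to 0.48. Tac2 in habenula-like nuclei, StressPP against NP, ran from -0.74 to 0.024 (without StressPP mouse 3). The number of members above the floor was 24 at 2-fold, 16 at 10-fold, 19 with microglia as the floor and 18 to 20 with 1 mouse left out. All 19 shares of nuclei with a UMI fell when nuclei were thinned to 1000 UMIs. The small classes (253 mossy-like and 318 Lhx6 and Pvalb nuclei) and the few striatal-type nuclei of ControlPP mice limit what could be tested.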

Other observations

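Co-detection in single nuclei was counted for pairs of members that share a class. In Lamp5 neurogliaform-like nuclei 43.4% of nuclei with an Npy UMI had a Pnoc UMI, against 31.6% of nuclei without Npy, higher in 12 of 15 mice, with a median of 12078 UMIs against 9579. In mossy-like nuclei 34.9% of nuclei with an Adcyap1 UMI had an Nmb UMI, against 19.5% of the others, higher in 7 of 15 mice. In thalamic-like nuclei Pnoc and Adcyap1 shared few nuclei: 6.09% of nuclei with a Pnoc UMI had Adcyap1, against 5.38% of the others. The part of depth in these shares was not tested.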
